A study of Mus musculus with 4 samples.

Results

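The 54 genes described here encode enzymes of the urea cycle and of amino acid breakdown in the mouse liver, together with a few enzymes that make amino acids. They were listed by gene symbol, and all 54 were found among the 56953 gene rows of the count table. By their main reaction, 40 were classed as catabolic, 5 as synthetic (Asns, Phgdh, Psat1, Psph and Pycr1) and 9 as mixed, the last being enzymes such as Glul, Mat1a and Bhmt that re-form or pass on an amino acid or its methyl group. A filter on low counts, applied to all genes alike, left 14600 genes for testing, and 53 of the 54 members were among them. The member left out was Bcat1, a cytosolic branched-chain aminotransferase, with 0 and 1 counts in the deletion libraries and 1 and 0 counts in the controls.

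The study compared livers with a hepatocyte deletion of Ubc13, the ubiquitin-conjugating enzyme encoded by Ube2n, with control livers, 2 libraries in each group, from mice 2 months old fed a normal diet. Both groups carried Ubc13 flox/flox alleles; the deletion mice also carried the Cre transgene that the labels call Alb positive, driven by the albumin promoter and so active in hepatocytes, and the controls, labelled Alb negative and WT, did not. Whether liver cells other than hepatocytes kept an intact Ube2n gene was not measured. The samples are labelled liver, while the library protocol in the labels also speaks of primary hepatocytes; the values are described as liver. No label says whether the replicates came from separate animals, so a p-value measures the spread between these libraries. It may be smaller than the spread between animals. The controls differed from each other as well, with 3343 and 6399 CPM for Tat, and the source of that spread was not tested. The deletion libraries differed from each other in sex-linked RNA, as given below, so they were not repeats of the same RNA.

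Total counts were 16927947 and 17114003 in the deletion libraries and 17800138 and 16270424 in the controls. Ube2n itself had 5.88 and 5.97 CPM (counts scaled to a common library size with TMM factors, the trimmed mean of M-values) in the deletion libraries, against 41.3 and 44.9 CPM in the controls. The groups also differed in sex-linked RNA. Xist, the RNA of the inactive X chromosome, had 9590 and 3896 counts in the deletion libraries against 9 and 2 counts in the controls, and the Y-linked gene Ddx3y had 0 and 719 counts in the deletion libraries against 1027 and 1011 counts in the controls. Deletion replicate 2 thus held both Xist and Y-linked RNA, and whether it holds RNA of more than 1 animal was not tested; its values may then stand for a mixture. Genotype and the sex-linked difference cannot be told apart in 4 libraries, and values are therefore given for each deletion library.

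Hepatocytes dispose of the nitrogen of dietary and tissue protein. Aminotransferases and dehydratases take the amino group off an amino acid, the urea cycle joins ammonia and aspartate nitrogen into urea, and the carbon skeletons pass to glucose or are burnt. The liver expresses the catabolic enzymes at very high levels, mostly on the portal side of the lobule, whereas serine and asparagine synthesis is low in the fed liver and rises when amino acids are scarce, through the transcription factor ATF4.

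Most transcripts of amino acid breakdown were lower in the deletion livers, with the largest falls in enzymes of phosphoethanolamine, histidine and methionine breakdown. Of the 53 tested members, 12 fell and 1 rose, and 40 did not pass (edgeR quasi-likelihood test, adjusted p under 0.05 over all 14600 genes). That is 22.6% of the tested members called lower, where 2.16% of all tested genes were called lower, and 1.89% called higher, where 4.41% were; calls in either direction made up 6.57% of all tested genes. DESeq2 called 25 members lower and 1 higher, where it called 4.48% of all tested genes lower and 6.80% higher. With limma-voom 13 members were called lower and 1 higher, where 2.14% of all tested genes were called lower and 4.12% higher. At an unadjusted p under 0.05 in edgeR, 31 members were lower, where 10.5% of all tested genes were lower. The 12 that fell were Etnppl, Hal, Ahcy, Gnmt, Tdo2, Hpd, Sds, Prodh2, Got1, Asl, Haao and Afmid, and the 1 that rose was Csad. A log2 fold change below 0 (deletion over control) was found for 45 members, with a median of -0.73, while the median over all tested genes was -0.0036. Both deletion libraries lay below both controls for 37 members, or 69.8%, where this held for 27.3% of all tested genes. For 4 members both lay above, or 7.55%, where 28.7% of all tested genes did so.

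As a share of all counts, the 54 genes made up 3.18% and 2.51% of the deletion libraries and 4.24% and 3.94% of the controls. The exact (Clopper-Pearson) 95% interval of the first of these runs from 3.17% to 3.18% and covers counting error only. With library sizes alone as the scaling, the median of all genes was 0.29 on the log2 scale; 10 members were then called lower and 39 had a log2 fold change below 0, so that 6 members near 0 (Agxt2, Bckdhb, Bhmt2, Gldc, Glud1 and Shmt2) changed sign.

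**Figure D1:**
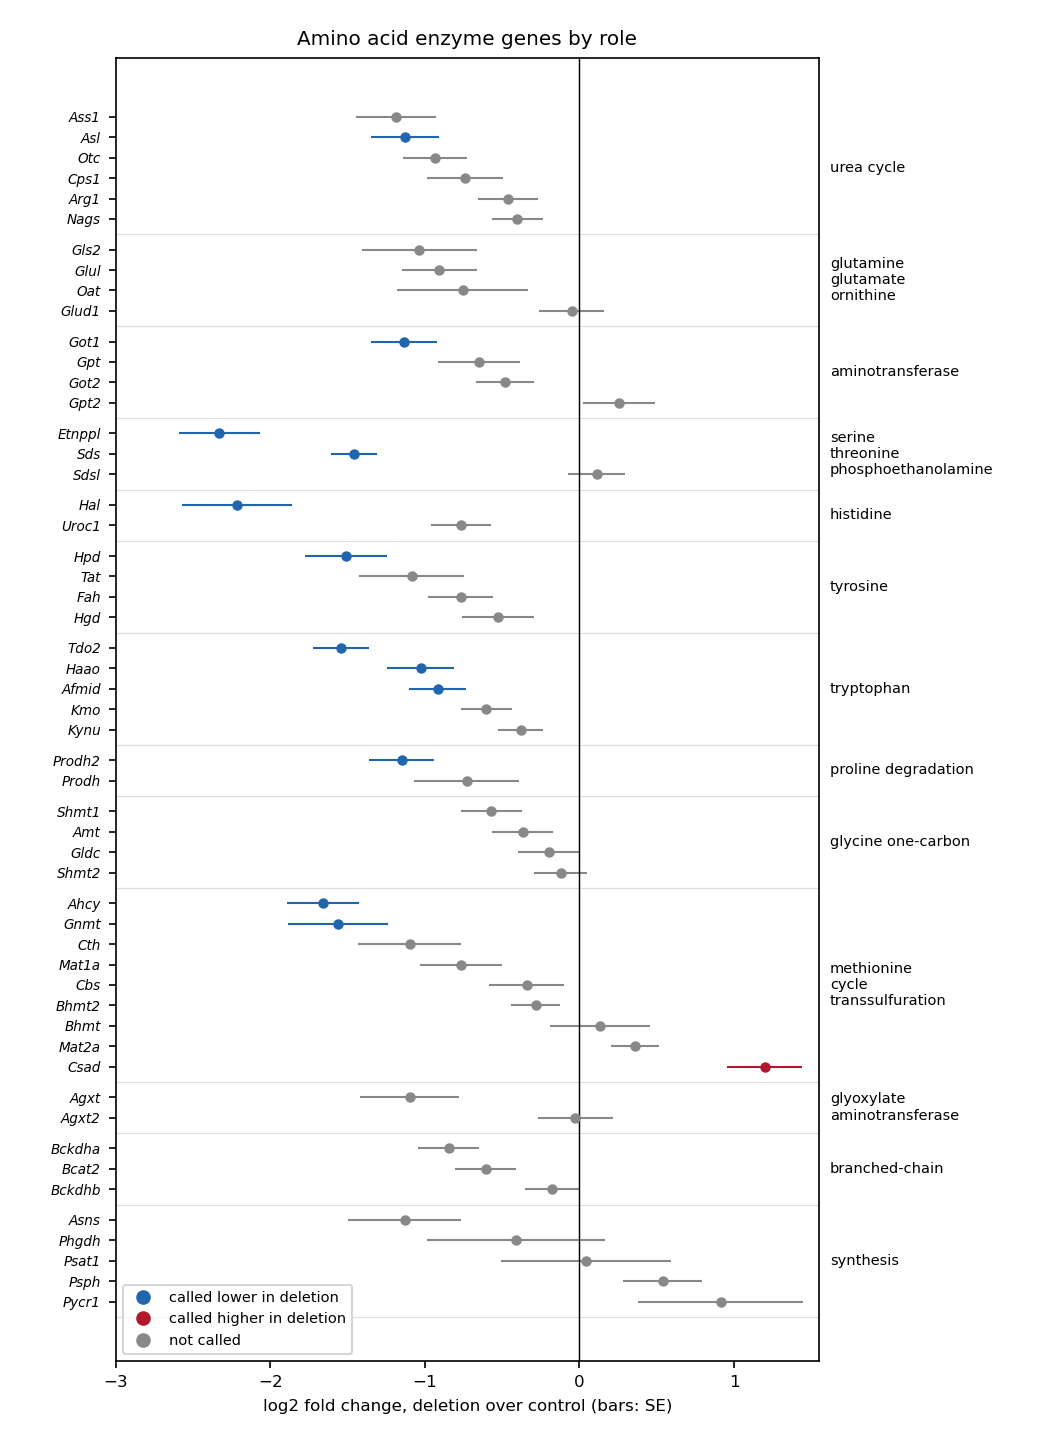
The log2 fold change of each of the 53 tested members (deletion over control, horizontal axis) with its standard error as a bar, grouped by role. Blue points mark the 12 members called lower and the red point Csad, the 1 called higher; all 6 urea cycle enzymes and all 5 tryptophan enzymes lie below 0.

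Markers of hepatocytes lay below their controls as well. Of 8 hepatocyte markers, edgeR called Ttr and Apoa2 lower and 6 did not pass, where 2.16% of all tested genes were called lower. DESeq2 called 6 lower and limma-voom 3, where they called 4.48% and 2.14% of all tested genes lower. In 6 of the 8 both deletion libraries lay below both controls, and in 1 both lay above. Over all tested genes these shares were 27.3% and 28.7%. The median log2 fold change of the 8 was -0.76. Their summed level was 99178 and 97272 CPM in the deletion libraries and 186380 and 178307 CPM in the controls. Albumin (Alb) took 4.87% and 4.87% of the counts of the deletion libraries and 10.8% and 10.3% of those of the controls. In whole tissue, fewer hepatocytes and less of a transcript per hepatocyte cannot be told apart. Of the 53 members, 24 had a log2 fold change below the hepatocyte marker median and 7 had one below that of Alb (-1.41).

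Markers of other cells moved differently from list to list, and their part in the results was not tested. Of 7 macrophage markers, Cd74 was called higher and 6 did not pass. All 7 had a log2 fold change above 0, from 0.46 to 3.07 with a median of 0.62. At an unadjusted p under 0.05 in edgeR 6 of the 7 were higher, and in 6 both deletion libraries lay above both controls. Their summed level was 993 and 743 CPM in the deletion libraries and 315 and 420 CPM in the controls. Of 7 bile duct markers, Spp1 and Sox9 were called higher and 5 did not pass. A log2 fold change below 0 was found for 4 of the 7, and their median was -0.77. Krt19, the defining duct keratin, had 2.91 and 3.96 CPM in the deletion libraries and 39.2 and 3.23 CPM in the controls. Of 5 neutrophil markers only S100a8 and S100a9 had enough counts to be tested. Neither passed in edgeR, DESeq2 or limma-voom, but both were higher at an unadjusted p under 0.05 (log2 fold change 1.85 for each), and neither overlapped between the groups. The summed level of the 5 was 4.56 and 4.07 CPM in the deletion libraries and 0.617 and 2.06 CPM in the controls, and the defining marker Ly6g was at 0 in all 4 libraries.

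The urea cycle starts in mitochondria with Cps1, which makes carbamoyl phosphate, and Otc, which joins it to ornithine, and goes on in the cytosol with Ass1, Asl and Arg1; Nags makes the activator that Cps1 needs. All 6 transcripts were lower in both deletion libraries than in either control, with log2 fold changes from -1.19 to -0.40. How many passed depended on the method. At an unadjusted p under 0.05 in edgeR 4 of the 6 were lower, where 10.5% of all tested genes were. DESeq2 called the same 4 lower (Asl, Ass1, Otc and Cps1), where it called 4.48% of all tested genes lower. With limma-voom 2 were called lower (Asl and Ass1), where 2.14% of all tested genes were. Only Asl, which cleaves argininosuccinate into arginine and fumarate, passed in edgeR after adjustment: it fell to 469 and 359 CPM in the deletion libraries, against 792 and 1016 CPM in the controls (log2 fold change -1.13 ± 0.22 (SE), edgeR adjusted p = 0.0393). That call was lost without deletion replicate 1 (adjusted p = 0.0596) or deletion replicate 2 (0.186).

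Ass1, the enzyme before it, had 1977 and 1419 CPM in the deletion libraries and 4339 and 3394 CPM in the controls (-1.19 ± 0.26, adjusted p = 0.0513), and passed without control replicate 1 (0.0342) or control replicate 2 (0.00568). Otc had 263 and 204 CPM in the deletion libraries and 498 and 394 CPM in the controls (-0.93 ± 0.21, adjusted p = 0.0548), and passed without control replicate 2 (0.00618). For both genes the deletion and control libraries did not overlap. Cps1, the member with the highest mean control level, although Tat was higher in control replicate 2, had 3953 and 2852 CPM in the deletion libraries and 5887 and 5468 CPM in the controls (-0.74 ± 0.25, adjusted p = 0.137). Arg1, which releases urea, had 1261 and 1013 CPM in the deletion libraries and 1537 and 1595 CPM in the controls (-0.46 ± 0.20, adjusted p = 0.215). Nags had 53.5 and 49.4 CPM in the deletion libraries and 75.0 and 60.7 CPM in the controls (-0.40 ± 0.17, adjusted p = 0.208). The transcripts of the 6 enzymes together made up 0.857% and 0.670% of counts in the deletion libraries and 1.20% and 1.07% in the controls.

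Of 14 tested carriers and helper enzymes that serve the cycle or move its substrates, edgeR called 2 lower and 12 did not pass. DESeq2 called 8 of the 14 lower. Of all tested genes, edgeR called 2.16% lower and DESeq2 4.48%. The median log2 fold change of the 14 was -0.80. Car5a, the mitochondrial carbonic anhydrase that supplies bicarbonate to Cps1, fell to 28.7 and 23.0 CPM in the deletion libraries, against 78.2 and 51.7 CPM in the controls (-1.33 ± 0.24, adjusted p = 0.0319). Slc7a2, a carrier for arginine and ornithine, fell to 290 and 356 CPM in the deletion libraries, against 806 and 630 CPM in the controls (-1.15 ± 0.21, adjusted p = 0.0314). Both calls were lost without deletion replicate 1 (0.0602 for Car5a and 0.11 for Slc7a2) and when deletion replicate 2 was left out (0.147 for Car5a and 0.0823 for Slc7a2), and that of Slc7a2 also with library sizes alone (0.0536).

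Glutamine is split on the portal side of the lobule by Gls2 and made again around the central vein by Glul, which catches ammonia that escaped the urea cycle; Oat, also pericentral, turns ornithine toward glutamate, and Glud1 frees ammonia from glutamate. None of the 4 passed in the edgeR test (2 were lower at an unadjusted p under 0.05, and DESeq2 called the same number lower). Gls2 had 246 and 119 CPM in the deletion libraries and 449 and 298 CPM in the controls (-1.03 ± 0.37, adjusted p = 0.161), and passed without control replicate 2 (0.0105). Glul had 682 and 447 CPM in the deletion libraries and 1013 and 1101 CPM in the controls (-0.90 ± 0.24, adjusted p = 0.0847), and passed without control replicate 1 (0.036). Portal and central enzymes of glutamine thus lay on the same side of their controls. Oat had 430 and 173 CPM in the deletion libraries and 592 and 424 CPM in the controls (-0.75 ± 0.42, adjusted p = 0.337); deletion replicate 2 had 0.403 times the level of deletion replicate 1, the groups overlapped, and the gene passed without deletion replicate 1 (0.0475). Glud1 lay close to its controls, with 1276 and 943 CPM in the deletion libraries and 1134 and 1164 CPM in the controls (-0.05 ± 0.21).

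Aminotransferases exchange amino groups between amino acids and keto acids, and cytosolic and mitochondrial copies did not have the same values. Got1, the cytosolic aspartate aminotransferase, fell to 250 and 174 CPM in the deletion libraries, against 451 and 479 CPM in the controls (-1.13 ± 0.22, adjusted p = 0.0354; 0.147 without deletion replicate 2). Its mitochondrial counterpart Got2 had 464 and 377 CPM in the deletion libraries and 632 and 543 CPM in the controls (-0.48 ± 0.19, adjusted p = 0.186). Among the alanine aminotransferases, the log2 fold change was -0.65 ± 0.27 for Gpt (adjusted p = 0.203) and 0.25 ± 0.23 for Gpt2 (0.564). Whether the members of a pair differed in their response was not tested.

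The largest and the firmest falls among the members were in enzymes that break down single amino acids or amines. Etnppl, which breaks down phosphoethanolamine, fell to 40.4 and 61.2 CPM in the deletion libraries, against 219 and 291 CPM in the controls (-2.33 ± 0.26, a 5.02-fold fall, adjusted p = 0.00901). Hal, histidine ammonia-lyase, the first enzyme of histidine breakdown, fell to 81.1 and 53.3 CPM in the deletion libraries, against 406 and 218 CPM in the controls (-2.22 ± 0.35, 4.64-fold, adjusted p = 0.0231; 0.0906 without deletion replicate 2). Sds, serine dehydratase, which turns serine into pyruvate, fell to 110 and 110 CPM in the deletion libraries, against 311 and 294 CPM in the controls (-1.46 ± 0.15, 2.74-fold, adjusted p = 0.00706). The replicates of Sds lay close together in both groups. Sds overlaps Plbd2 on the opposite strand, which had 1993 and 1932 counts in the deletion libraries and 1634 and 1472 counts in the controls, and likewise Afmid overlaps Tk1, which had 680 and 612 counts in the deletion libraries and 840 and 847 counts in the controls. Sdsl, the related gene beside it on chromosome 5, had 22.1 and 20.0 CPM in the deletion libraries and 16.9 and 22.1 CPM in the controls (0.11 ± 0.18, adjusted p = 0.769), and its groups overlapped. Uroc1, the enzyme after Hal, had 384 and 305 CPM in the deletion libraries and 631 and 541 CPM in the controls (-0.77 ± 0.19, adjusted p = 0.0723).

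**Figure D2:**
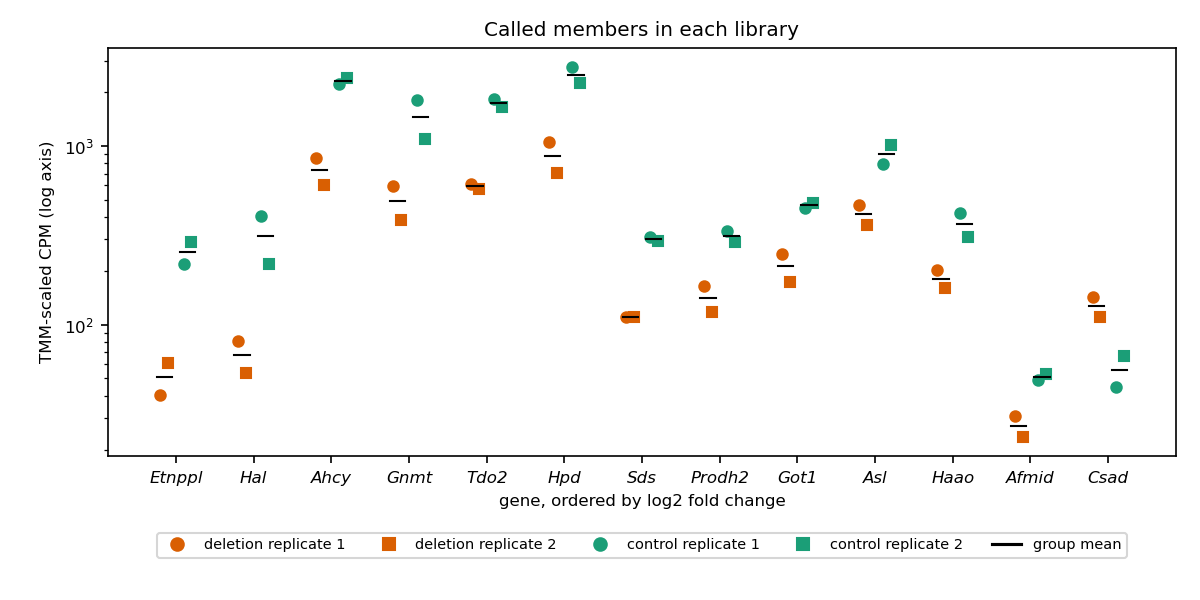
Level of the 13 called members in each library, as TMM-scaled CPM on a log axis; circles are replicate 1 and squares replicate 2, orange for deletion and green for control, and black lines are group means. In all 13 genes the deletion and control libraries do not overlap, and Csad is the 1 gene with the deletion libraries above the controls.

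Tyrosine breakdown runs from Tat through Hpd and Hgd to Fah, and all 4 transcripts were lower in both deletion libraries than in either control. Hpd, which makes homogentisate, fell to 1057 and 702 CPM in the deletion libraries, against 2777 and 2233 CPM in the controls (-1.51 ± 0.27, 2.85-fold, adjusted p = 0.0293; 0.0968 without deletion replicate 2). Tat, the aminotransferase that starts the pathway and is induced by glucocorticoids, had 2439 and 2152 CPM in the deletion libraries and 3343 and 6399 CPM in the controls (-1.09 ± 0.34, adjusted p = 0.12). Control replicate 2 had 1.91 times the Tat level of control replicate 1, and the gene passed without control replicate 1 (0.00233). For Fah, the last enzyme, the log2 fold change was -0.77 ± 0.21, and for Hgd it was -0.52 ± 0.23 (adjusted p = 0.0883 for Fah and 0.234 for Hgd).

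Of the 5 enzymes of tryptophan breakdown along the kynurenine route 3 were called lower, where 2.16% of all tested genes were. Tdo2, tryptophan dioxygenase, the entry step in hepatocytes, fell to 613 and 577 CPM in the deletion libraries, against 1817 and 1646 CPM in the controls (-1.54 ± 0.18, 2.91-fold, adjusted p = 0.00973). Afmid, the formamidase of the next step, fell to 30.8 and 23.4 CPM in the deletion libraries, against 49.0 and 53.2 CPM in the controls (-0.92 ± 0.18, adjusted p = 0.0409). Haao, which makes the precursor of quinolinate, fell to 201 and 159 CPM in the deletion libraries, against 423 and 311 CPM in the controls (-1.03 ± 0.22, adjusted p = 0.0487). Kmo (-0.60 ± 0.17, adjusted p = 0.0918) and Kynu (-0.38 ± 0.14, adjusted p = 0.178), which act between Afmid and Haao, did not pass in edgeR. DESeq2 called 4 of the 5 lower, Kmo among them, where it called 4.48% of all tested genes lower. All 5 were lower at an unadjusted p under 0.05 in edgeR, where 10.5% of all tested genes were. Afmid and Haao did not pass once deletion replicate 1 (0.0537 for Afmid, 0.0807 for Haao) or deletion replicate 2 (0.205 for Afmid, 0.23 for Haao) was left out, nor with library sizes alone as the scaling (0.0641 and 0.0716).

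Proline is oxidised by Prodh, and hydroxyproline from collagen by Prodh2. Prodh2 fell to 164 and 118 CPM in the deletion libraries, against 335 and 291 CPM in the controls (-1.15 ± 0.21, adjusted p = 0.0323; 0.143 without deletion replicate 2). Prodh had 212 and 104 CPM in the deletion libraries and 294 and 230 CPM in the controls (-0.73 ± 0.34, adjusted p = 0.257), without overlap but with a wide gap between the deletion libraries. The 4 glycine and serine one-carbon enzymes Gldc, Amt, Shmt1 and Shmt2 had smaller log2 fold changes, from -0.57 to -0.12, and did not pass (1 was lower at an unadjusted p under 0.05, and DESeq2 and limma-voom called 0).

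The methionine cycle charges methionine to S-adenosylmethionine (Mat1a in mature liver, Mat2a elsewhere), spends the methyl group, much of it on glycine through Gnmt, splits S-adenosylhomocysteine with Ahcy, and then either re-methylates homocysteine (Bhmt) or commits it to cysteine (Cbs and Cth). Of 9 tested members of this cycle and of transsulfuration, edgeR called 2 lower, Gnmt and Ahcy, and 1 higher. DESeq2 called 4 lower, with Mat1a and Cth added, and 1 higher, where it called 4.48% of all tested genes lower and 6.80% higher. At an unadjusted p under 0.05 in edgeR 4 were lower and 1 higher. Ahcy fell to 858 and 607 CPM in the deletion libraries, against 2214 and 2401 CPM in the controls (-1.66 ± 0.23, 3.15-fold, adjusted p = 0.0166; 0.0528 without deletion replicate 2). Gnmt fell to 595 and 387 CPM in the deletion libraries, against 1803 and 1092 CPM in the controls (-1.56 ± 0.33, 2.95-fold, adjusted p = 0.0462; 0.176 without deletion replicate 2). Mat1a had 3849 and 2535 CPM in the deletion libraries and 5514 and 5323 CPM in the controls (-0.76 ± 0.27, adjusted p = 0.151), and Mat2a had 129 and 151 CPM in the deletion libraries and 110 and 107 CPM in the controls (0.36 ± 0.15, adjusted p = 0.223). The hepatic and the general form thus lay on opposite sides of their controls, each without overlap, although neither passed. Bhmt, the abundant betaine-dependent methyltransferase, had 3103 and 2387 CPM in the deletion libraries and 3216 and 1784 CPM in the controls (0.13 ± 0.32), with overlap.

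Of the transsulfuration enzymes, Cth, which releases cysteine from cystathionine, had 316 and 166 CPM in the deletion libraries and 593 and 438 CPM in the controls (-1.10 ± 0.33, adjusted p = 0.111), and passed without deletion replicate 1 (0.038) or control replicate 2 (0.00849). For Cbs, which starts the branch, the log2 fold change was -0.34 ± 0.24 (adjusted p = 0.451). Csad, which makes hypotaurine, the precursor of the taurine used for bile salts, was the member that rose, to 143 and 111 CPM in the deletion libraries, against 44.5 and 66.3 CPM in the controls (1.20 ± 0.24, 2.29-fold, adjusted p = 0.0423). With deletion replicate 1 left out the adjusted p of Csad was 0.134, and with deletion replicate 2 left out 0.0807. Csad overlaps Zfp740 on the opposite strand, which had 502 and 745 counts in the deletion libraries and 612 and 610 counts in the controls, and the strand setting of the counting is not given in the sources used here.

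Agxt, the peroxisomal enzyme that removes glyoxylate, had 158 and 130 CPM in the deletion libraries and 407 and 210 CPM in the controls (-1.10 ± 0.32, adjusted p = 0.104), and passed without control replicate 2 (0.000288). For the mitochondrial Agxt2 the log2 fold change was -0.03 ± 0.24, with overlap. Branched-chain amino acids are degraded mostly outside the liver at the aminotransferase step (Bcat2) and in the liver at the dehydrogenase step (Bckdha and Bckdhb). Bckdha had 45.9 and 33.1 CPM in the deletion libraries and 73.9 and 68.1 CPM in the controls (-0.85 ± 0.20, adjusted p = 0.0599), and the log2 fold change was -0.61 ± 0.20 for Bcat2 (adjusted p = 0.131) and -0.18 ± 0.17 for Bckdhb (0.593). The subunits of 1 enzyme complex thus did not have the same values, and their difference was not tested.

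**Figure D3:**
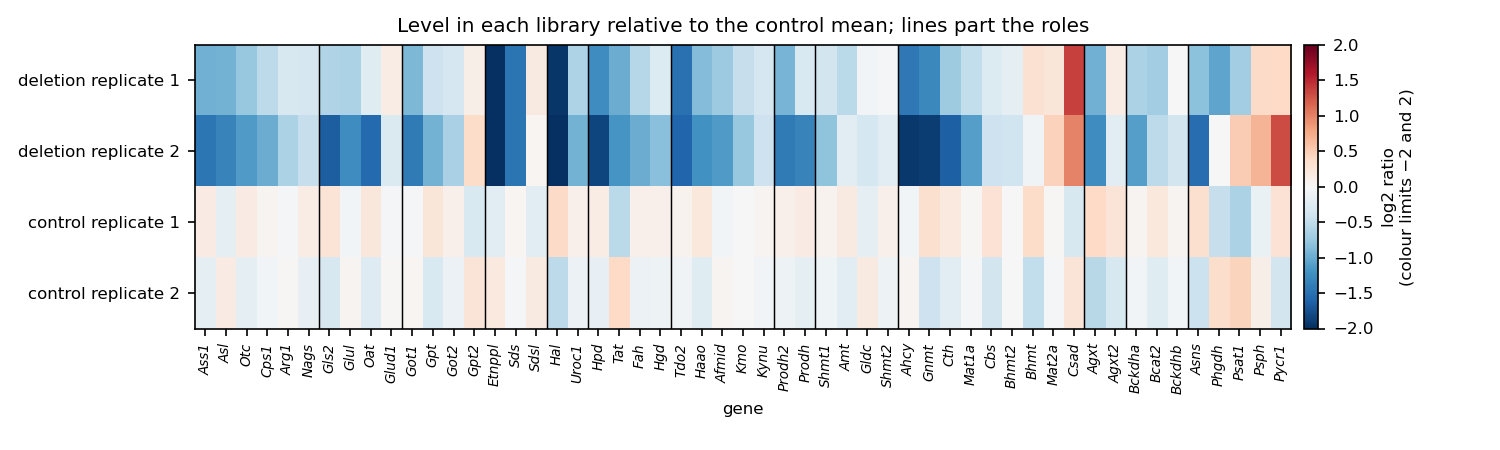
Level of each of the 53 tested members in each library relative to the mean of the controls, as a log2 ratio in colour (red higher, blue lower, limits -2 and 2), with genes ordered by role along the horizontal axis. Deletion replicate 2 is the bluer of the deletion rows in most catabolic roles, and the 5 synthetic genes at the right end show no common colour.

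Replicates differed within both groups. In 44 of the 53 members (83.0%) the level was lower in deletion replicate 2 than in deletion replicate 1, where this was so for 49.4% of all tested genes. The controls leaned the same way, with 37 members (69.8%) lower in control replicate 2 than in control replicate 1, where this was so for 50.7% of all tested genes. Relative to the control mean, the median log2 ratio of the members was -0.54 in deletion replicate 1, which had 9590 Xist counts and 0 Ddx3y counts, and -0.95 in deletion replicate 2, which had 3896 Xist counts and 719 Ddx3y counts. The median log2 fold change of the catabolic members was -0.61 without deletion replicate 2 and -1.11 without deletion replicate 1. It was -0.66 without control replicate 1 and -0.87 without control replicate 2. The number of all genes called changed as well with the library left out. Calls gained or lost in this way need therefore not be particular to the members. Etnppl, Sds and Tdo2 passed with any 1 library left out (highest adjusted p = 0.0202, 0.0382 and 0.0448). In GRCm38, Etnppl lies at chr3:130617448-130637521, Sds at chr5:120476526-120483932 and Tdo2 at chr3:81957090-81976202, by the GENCODE annotation.

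Catabolic and synthetic enzymes stood at very different levels. The 39 tested catabolic members had a median control level of 373 CPM, and the 5 synthetic ones 2.49 CPM; libraries of this kind read the 3' end of transcripts, so that these levels do not scale with transcript length. Among the catabolic members 11 fell and 28 did not pass (28.2% called lower, against 2.16% of all tested genes), with a median log2 fold change of -0.77. None of the 5 synthetic members passed in edgeR (1 was lower at an unadjusted p under 0.05, and DESeq2 and limma-voom called 0), and their median was 0.04. The synthetic median rests on few reads: it was 0.51 without deletion replicate 1, -0.69 without deletion replicate 2, -0.40 without control replicate 1 and 0.64 without control replicate 2. The difference between the classes was not tested.

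Asns, asparagine synthetase, lay below its controls like most catabolic members, with 6.26 and 3.86 CPM in the deletion libraries and 13.9 and 8.24 CPM in the controls (-1.13 ± 0.36, adjusted p = 0.128), and passed without control replicate 2 (0.00623). The serine pathway gave few reads at its first step, where Phgdh had 9 and 20 counts in the deletion libraries and 12 and 19 counts in the controls (-0.41 ± 0.58). Psat1, the second step, had 28 and 69 counts in the deletion libraries and 26 and 49 counts in the controls (0.04 ± 0.55), so that replicate 2 was the higher in both groups. Psph, which completes serine, had 7.31 and 9.01 CPM in the deletion libraries and 5.12 and 6.11 CPM in the controls (0.54 ± 0.26, adjusted p = 0.262), without overlap; it lies over Cct6a on the opposite strand, which had 2798 and 2455 counts in the deletion libraries and 1925 and 2352 counts in the controls. Pycr1, the last step of proline synthesis, had 17 and 34 counts in the deletion libraries and 14 and 8 counts in the controls (0.91 ± 0.53, adjusted p = 0.353).

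Proline synthesis begins with Aldh18a1, which is no member but was on the list of other synthetic enzymes. It rose to 5.55 and 7.87 CPM in the deletion libraries, against 2.34 and 1.44 CPM in the controls (1.82 ± 0.37, adjusted p = 0.0428), and did not pass with deletion replicate 1 (0.0754) or deletion replicate 2 (0.227) left out. It was the 1 edgeR call among 15 tested genes of that list, whose median log2 fold change was 0.20. DESeq2 called 4 of the 15 higher and 1 lower, limma-voom called 1 higher, and 6 were higher and 1 lower at an unadjusted p under 0.05. Prodh, which breaks down proline, lay below its controls but was not called (edgeR adjusted p = 0.257). The synthetic Aldh18a1 and Pycr1 lay above theirs, and of these only Aldh18a1 was called. Prodh2, which was called lower, acts on hydroxyproline.

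Upstream sequence was read from the RefSeq promoter table (GRCm38.p6, 250 bases before to 50 after a gene's start), which holds 44 of the 54 members. 4 motifs were searched on both strands. They were TGATGNAA, the core of the element that ATF4 and C/EBP proteins bind in amino acid response genes, TTGCNNAA, a C/EBP core, CAAAGTCCA, an HNF4A motif, and TGACGTCA, the cyclic AMP response element. The stretches below are those around a match in a synthetic member or in a member called lower, with the match in capitals. They are shown 5′ to 3′ on the strand of the gene.
Asns (chr6:7693225-7693272, minus strand): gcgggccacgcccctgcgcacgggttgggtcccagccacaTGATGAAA
Pycr1 (chr11:120643804-120643891, minus strand): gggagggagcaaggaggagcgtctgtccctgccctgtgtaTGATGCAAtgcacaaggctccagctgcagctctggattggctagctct
Got1 (chr19:43524660-43524747, minus strand): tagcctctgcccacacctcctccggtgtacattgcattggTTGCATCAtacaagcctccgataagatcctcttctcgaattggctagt
Hal (chr10:93488578-93488665, plus strand): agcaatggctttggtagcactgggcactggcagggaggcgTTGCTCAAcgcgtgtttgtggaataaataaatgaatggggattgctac
Prodh2 (chr7:30493408-30493461, plus strand): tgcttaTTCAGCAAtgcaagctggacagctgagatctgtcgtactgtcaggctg
The first 3 hold TGATGNAA (Got1 on the other strand), and Hal and Prodh2 hold TTGCNNAA (Prodh2 on the other strand). TGATGNAA was found for 2 of the 5 synthetic members, 1 of the 31 catabolic ones and 3.97% of all 32851 promoters. TTGCNNAA was found for 4 of the 31 catabolic members, 1 of the synthetic ones and 10.8% of all promoters. CAAAGTCCA was found for 1 of the 44 members (Agxt2) and 0.475% of all promoters, and TGACGTCA for 0 of the 44 and 1.79% of all. Members were counted by gene, with a match in any promoter of the gene, and all promoters singly. The shares are therefore not like for like. Pycr1 holds a TTGCNNAA match as well, further from its start. Among the genes shown, Asns, Got1, Hal and Prodh2 were lower in both deletion libraries and Pycr1 higher. Asns and Pycr1 were not called, and Pycr1 had only 17 and 34 counts in the deletion libraries and 14 and 8 in the controls. A match describes letters only and shows no binding.

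Genes around the members were counted from lists set by pathway. Like the members, these lists were chosen with earlier results of these data known. Of 49 other tested amino acid catabolic genes, edgeR called 9 lower and 40 did not pass, where 2.16% of all tested genes were called lower. DESeq2 called 24 of the 49 lower, where it called 4.48% of all tested genes lower. Both deletion libraries lay below both controls for 39 of the 49 and above for 2. Over all tested genes these shares were 27.3% and 28.7%. The median log2 fold change of the 49 was -0.68. Ppm1k, the phosphatase that switches on the branched-chain dehydrogenase, fell to 28.3 and 32.7 CPM in the deletion libraries, against 99.9 and 97.1 CPM in the controls (-1.69 ± 0.15, adjusted p = 0.00545). Kyat1, a kynurenine aminotransferase, fell to 78.4 and 78.2 CPM in the deletion libraries, against 237 and 223 CPM in the controls (-1.55 ± 0.15, adjusted p = 0.00585). Both passed with any 1 library left out. The related Kyat3 (-1.45 ± 0.26), the tryptophan dioxygenase Ido2 (-1.19 ± 0.24), the sulfur transferase Mpst (-1.01 ± 0.20) and Gcdh, which acts in lysine and tryptophan breakdown (-0.98 ± 0.19), fell as well (adjusted p = 0.0306, 0.0409, 0.042 and 0.0393). These 4 lost their calls without deletion replicate 2 (0.143, 0.193, 0.182 and 0.2), Ido2 and Gcdh also without deletion replicate 1 (0.07 and 0.0624), and Kyat3 had 0.0495 without it. With library sizes alone Ido2 (0.0581), Mpst (0.0581) and Gcdh (0.0574) did not pass either.

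A list of liver regulators, signalling genes and gluconeogenic enzymes held 28 tested genes, with a median of -0.22. Of these, edgeR called 2 lower and 26 did not pass, and DESeq2 called 3 lower. Of all tested genes, edgeR called 2.16% lower and DESeq2 4.48%. Klf15, a transcription factor that raises amino acid breakdown in fasted liver, fell to 149 and 168 CPM in the deletion libraries, against 259 and 286 CPM in the controls (-0.78 ± 0.16, adjusted p = 0.0429). Pck1, a gluconeogenic enzyme and no regulator, fell to 2869 and 3153 CPM in the deletion libraries, against 6038 and 5856 CPM in the controls (-0.98 ± 0.21, adjusted p = 0.0487). Klf15 did not pass without deletion replicate 1 (0.186), deletion replicate 2 (0.156) or with library sizes alone (0.104), and Pck1 did not in the same 3 settings (0.127, 0.129 and 0.0706). The liver factors Hnf4a (-0.21 ± 0.17), Cebpa (-0.36 ± 0.26) and Ppargc1a (-0.29 ± 0.30) did not pass (adjusted p = 0.52, 0.455 and 0.616). With library sizes alone the log2 fold changes of Hnf4a and Ppargc1a were above 0.

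The ATF4 response, which drives Asns and the serine enzymes when amino acids run short, gave no calls. Atf4 had 94.0 and 68.5 CPM in the deletion libraries and 92.7 and 111 CPM in the controls (-0.33 ± 0.20, adjusted p = 0.386). Of 29 tested genes of this response 0 were called by edgeR, 2 were higher and 2 lower at an unadjusted p under 0.05, and DESeq2 called 1 lower; their median log2 fold change was -0.14.

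**Figure D4:**
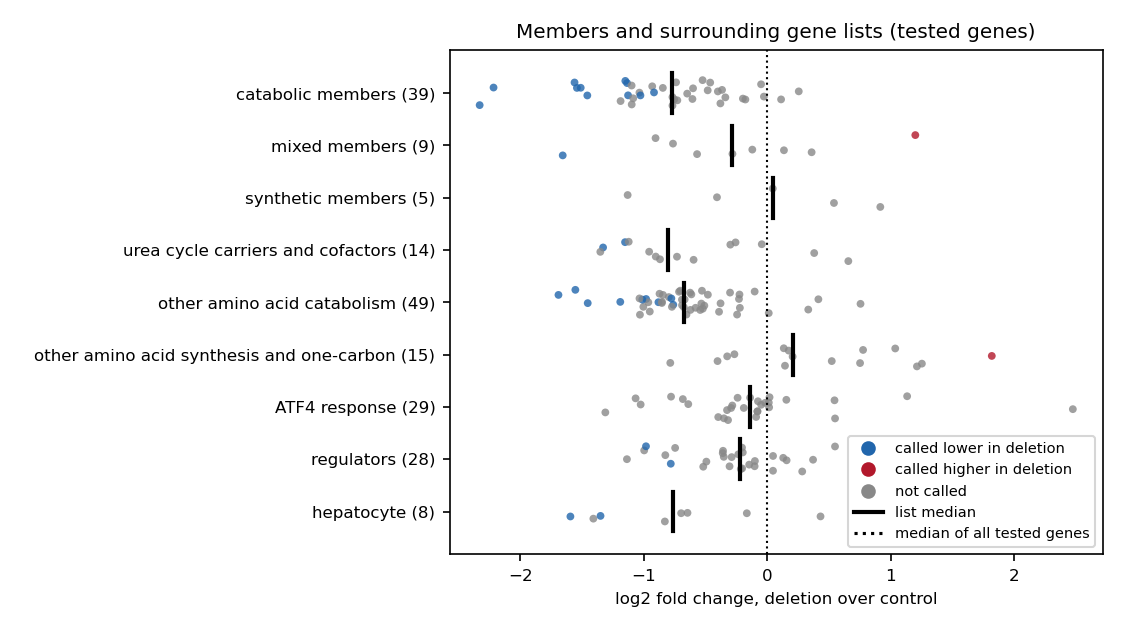
Each tested gene of a class or list as a point at its log2 fold change (deletion over control), with the number of tested genes in brackets, list medians as thick bars and the median of all tested genes as a dotted line. The catabolic members (-0.77), the urea cycle carriers (-0.80), the other catabolic genes (-0.68) and the hepatocyte markers (-0.76) have medians well below 0, and the synthetic members (0.04) and the other synthetic genes (0.20) do not.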

How the data were processed

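4 libraries of the 3' ends of mouse liver RNA were made with the QuantSeq kit and sequenced as single-end reads, per the labels' protocols. Alignment was with Bowtie2 and the build was mm10 (GRCm38), per the submitters' processing notes. The deposited values are raw counts per gene made by the authors; which counting program, strand setting and annotation they used is not given in the sources used here. Symbols and coordinates came from GENCODE M21 (GRCm38), which matched 52029 of 56953 rows.

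Counts were filtered with filterByExpr (minimum count 10, total 15), which left 14600 genes, scaled by TMM and tested with edgeR 4.0.16 in R 4.3.3 (quasi-likelihood F test, Benjamini-Hochberg adjustment over all genes tested, threshold 0.05). The fit had 2 residual degrees of freedom, so precision rests on a spread shared across genes. CPM are per library, log2 fold changes are deletion over control, and ± is the standard error, computed by dividing the absolute log2 fold change by the root of the F statistic. A count of 3 corresponds to 0.169 to 0.184 CPM, depending on the library. DESeq2 1.42.0, limma-voom (limma 3.58.1), other scalings and filters, replicate blocks and each library left out were alternatives. The steps were checked on simulated counts.

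Replicate numbers come from the labels, which do not say that they pair samples. Members and lists were chosen with earlier results of these data known. Full values were given for every called member, the urea cycle enzymes, Glul, Gls2, Oat, the synthetic enzymes and any member with a log2 fold change of 1 or more in size; of each surrounding list, at most 6 called genes with the largest changes, and the regulators Atf4, Hnf4a, Cebpa and Ppargc1a. Further values were chosen after they were seen.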

Additional observations from a re-analysis of the deposited data

How the results depend on the processing

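Of all tested genes 959 were called, and of the members 12 lower and 1 higher. With library sizes alone 1764 genes were called, 88.5% of them higher against 67.2% with TMM, the catabolic median was -0.48, and Hnf4a and Ppargc1a changed sign (0.088 and 0.015). Without a filter on low counts 2768 genes and 30 members lower were called, and with DESeq2 1647 genes and 25 members lower. DESeq2 size factors, a filter of 1 CPM in 2 libraries, limma-voom and robust estimation each gave 12 or 13 members lower and 1 higher. The causes were not tested.

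Same-numbered libraries did not deviate together (correlation -0.12), so the numbers are not shown to pair samples. With the replicate block 390 genes, 9 members lower and 0 higher were called, and 8 of the 13 member calls were shared; Asl (adjusted p = 0.0842), Got1 (0.0682), Haao (0.0524), Afmid (0.0919) and Csad (0.0961) did not pass, and Ass1 did (0.0442). Of the other genes named, Slc7a2 (0.0735), Kyat3 (0.0779), Mpst (0.074), Gcdh (0.0568), Aldh18a1 (0.107), Klf15 (0.0818) and Pck1 (0.0678) did not pass with the block either. With the pairing crossed, an alternative chosen after seeing the data, 1366 genes, 11 members lower and 1 higher were called.

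Leaving out 1 library, where the lone library is assumed to vary like the other group, gave 343 to 2081 genes, 3 to 23 members lower and 0 to 1 higher. The catabolic median then ran from -1.11 to -0.61 and the synthetic median from -0.69 to 0.64. Log2 fold changes that crossed 0 ran from -1.03 to 0.047 for Phgdh, -0.69 to 0.67 for Psat1, -0.68 to 0.051 for Cebpa and -0.83 to 0.089 for Ppargc1a. With 2 libraries a group, and under 70 counts for Phgdh, Psat1 and Pycr1 in any library, differences of the synthetic enzymes were not detectable at this depth unless large.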

Other observations

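Genes that mark the zones of the liver lobule and genes that differ between the sexes in mouse liver were counted as well. Of all tested genes, edgeR called 4.41% higher and 2.16% lower, and DESeq2 6.80% higher and 4.48% lower. Of 18 tested periportal genes, edgeR called 3 higher and 6 lower, with a median log2 fold change of -0.96. Of 20 tested pericentral genes, it called 2 higher and 3 lower, with a median of -0.78. Members such as Hal, Ass1 and Glul are on the zone lists, so these counts are not independent of those above. Of 16 tested male-biased genes 4 were called lower and 0 higher by edgeR, with 2 higher and 8 lower at an unadjusted p under 0.05, 2 higher and 8 lower by DESeq2, and a median of -1.42. Of 16 tested female-biased genes 3 were called lower and 0 higher by edgeR, with 1 higher and 8 lower at an unadjusted p under 0.05, 1 higher and 4 lower by DESeq2, and a median of -1.28. The controls themselves differed on the male-biased list, with summed levels of 1476 and 3151 CPM, against 2249 and 1799 CPM in the deletion libraries. The part of sex in these values was not tested and cannot be told apart from genotype in 4 libraries.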
